A study of Mus musculus with 16 samples.

Results

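A set of 37 genes that mark brain cells other than microglia was followed in the RNA of microglia/macrophages, out of 32166 genes counted. The genes were found by symbol in the deposited counts and were listed from what is known of the cell types, not from measured values. They are 6 markers of astrocytes, 6 of oligodendrocytes, 4 of oligodendrocyte precursors, 7 of neurons, 6 of endothelial cells, 5 of mural cells (pericytes and smooth muscle cells of the vessel wall) and 3 of fibroblasts. The study asked how the vitamin D receptor (VDR) of microglia/macrophages shapes the response to ischemic stroke. It sequenced RNA of cells purified from the brain on day 3 after middle cerebral artery occlusion (MCAO), a model of stroke in which a large artery is blocked, or after sham surgery.

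There were 16 libraries. The 5 sham control and 4 MCAO control libraries came from Vdrf/f mice, in which Vdr is flanked by recombination sites and no Cre recombinase is present. The 3 sham Vdr-cKO and 4 MCAO Vdr-cKO libraries came from Cx3cr1CreER/+; Vdrf/f mice. All were male C57BL/6 mice of 10 to 12 weeks, and tamoxifen, which switches on the CreER protein, was given before surgery. The Cre is driven by the Cx3cr1 promoter, which is active in microglia and also in border macrophages and monocytes, and its carriers have 1 disrupted copy of Cx3cr1. The sources differ on the isolation, naming CD11b microbeads in one place and a sort of CD11b+ cells with intermediate CD45 in another. Whether 1 library is 1 mouse is not stated, so p-values measure the spread between these libraries, which may be technical.

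Microglia are the resident macrophages of the brain, and a preparation of them can carry whole cells of other kinds, pieces of their processes, free RNA, or material that macrophages engulfed. Astrocytes support neurons and the vessel wall, oligodendrocytes wrap axons in myelin and arise from precursors, endothelial cells form the blood-brain barrier, mural cells surround them, and fibroblasts of the meninges and large vessels make collagen. A marker is seldom silent in every other cell, and several of the genes are also known from myeloid cells, among them Pecam1, a contact protein of endothelium, platelets and leukocytes. In bulk RNA, fewer cells of a type and less RNA per cell cannot be told apart.

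The libraries held 13795946 to 17836796 counts. Levels are given as CPM, the counts of a library scaled by TMM to 1000000, with libraries in replicate order. In these units 3 counts were 0.176 to 0.211 CPM, below which a level is not told from 0. The summed level of 9 microglial genes (P2ry12, Tmem119, Csf1r, Cx3cr1 and others) was 21593 to 26099 CPM in sham control and 19106 to 21231 CPM in sham Vdr-cKO libraries. After MCAO it was 13139 to 14683 CPM in control and 9949.6 to 12887 CPM in Vdr-cKO libraries. Within each surgery every Vdr-cKO library was below every control, in a sum that holds the disrupted Cx3cr1. Per kilobase of exon, mean Cx3cr1 was 1089.5 and 499.6 CPM in sham control and sham Vdr-cKO libraries, and 495 and 203 CPM after MCAO. Csf1r was also lower in Vdr-cKO libraries, but Tmem119 was higher (894 and 933 CPM after sham, 313 and 439 CPM after MCAO). P2ry12 was higher after sham (1300 and 1493 CPM) and lower after MCAO (535 and 442 CPM). Not every gene of the sum was lower after MCAO. Between sham control and MCAO control libraries, Aif1 (85.2 and 95 CPM), Itgam (69.6 and 107 CPM) and Ptprc (30.3 and 44.4 CPM) were higher. P2ry12, Tmem119, Csf1r, Cx3cr1, Sall1 and Siglech were lower. In MCAO Vdr-cKO libraries Aif1 was at 117 CPM, Itgam at 106 CPM and Ptprc at 44.9 CPM. The summed level of 6 monocyte genes was 106 to 214 and 147 to 172 CPM in the sham groups. After MCAO it was 2477 to 3733 CPM in control and 1461 to 4028 CPM in Vdr-cKO libraries, from genes that went different ways. Per kilobase of exon, mean Fn1 was 212 CPM in MCAO control and 131 CPM in MCAO Vdr-cKO libraries. The other monocyte genes had higher means in MCAO Vdr-cKO libraries. These were Ly6c2 (8.63 and 104 CPM), Plac8 (21.3 and 135), Ccr2 (23.4 and 35.5), Chil3 (63.9 and 121) and Vcan (2.78 and 4.91). Cx3cr1 fell with genotype after sham (log2 fold change -1.16 ± 0.20 SE, adjusted p = 0.0279, edgeR) and after MCAO (log2 fold change -1.29 ± 0.10 SE, adjusted p = 4.04e-05). Vdr stood at 0.0594 to 8.3 CPM in all, and after MCAO at 3.37, 1.69, 1.48 and 2.84 CPM in control and 8.3, 3.26, 1.66 and 1.47 CPM in Vdr-cKO libraries. That difference did not pass the test (log2 fold change 0.62 ± 0.51 SE, adjusted p = 0.558), and a count over the whole gene does not check the loss of part of it, so groups are called by their labels. The columns of the sham control libraries carry a name ending that no other group has, so handling and group cannot be told apart there. Sham control replicates 2, 4 and 5 lay apart from replicates 1 and 3 on the third principal component.

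Together the 37 genes took 0.0441% ± 0.00887 (SD, n = 5) of all counts in sham control and 0.0454% ± 0.00485 (SD, n = 3) in sham Vdr-cKO libraries. After MCAO they took 0.0339% ± 0.00325 (SD, n = 4) in control and 0.0403% ± 0.00458 (SD, n = 4) in Vdr-cKO libraries. The lowest library had 0.0311% (95% exact binomial interval 0.0303% to 0.032%, counting error only) and the highest 0.0531%. The MCAO control range lay below the sham Vdr-cKO range, and the other pairs of groups overlapped. Per kilobase of exon, averaged over all libraries, the highest levels were those of Cnp (15.7 CPM per kb), Acta2 (14.9), Mbp (6.96), Pecam1 (6.53), Cldn5 (5.05) and Mag (5.04). The lowest were those of Gad1 (0.042 CPM per kb), Nefl (0.0644), Olig2 (0.0883), Syt1 (0.109) and Slc17a7 (0.109). The order of Acta2 and Cnp turned between surgeries, with Acta2 at 24.6 and Cnp at 11.8 CPM per kb in sham control and 5.21 and 14.4 CPM per kb in MCAO control libraries. Markers of the same cell type were far apart on this scale. Beside Cnp and Mbp, the myelin genes Mog and Cldn11 were at 0.201 and 0.665 CPM per kb, and beside Acta2 the mural genes Kcnj8 and Abcc9 were at 0.174 and 0.184 CPM per kb. Of the 37 genes, 6 were at 0 counts in at least 1 library, namely Mog, Cldn11, Olig2, Nefl, Gad1 and Kcnj8.

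**Figure D1:**
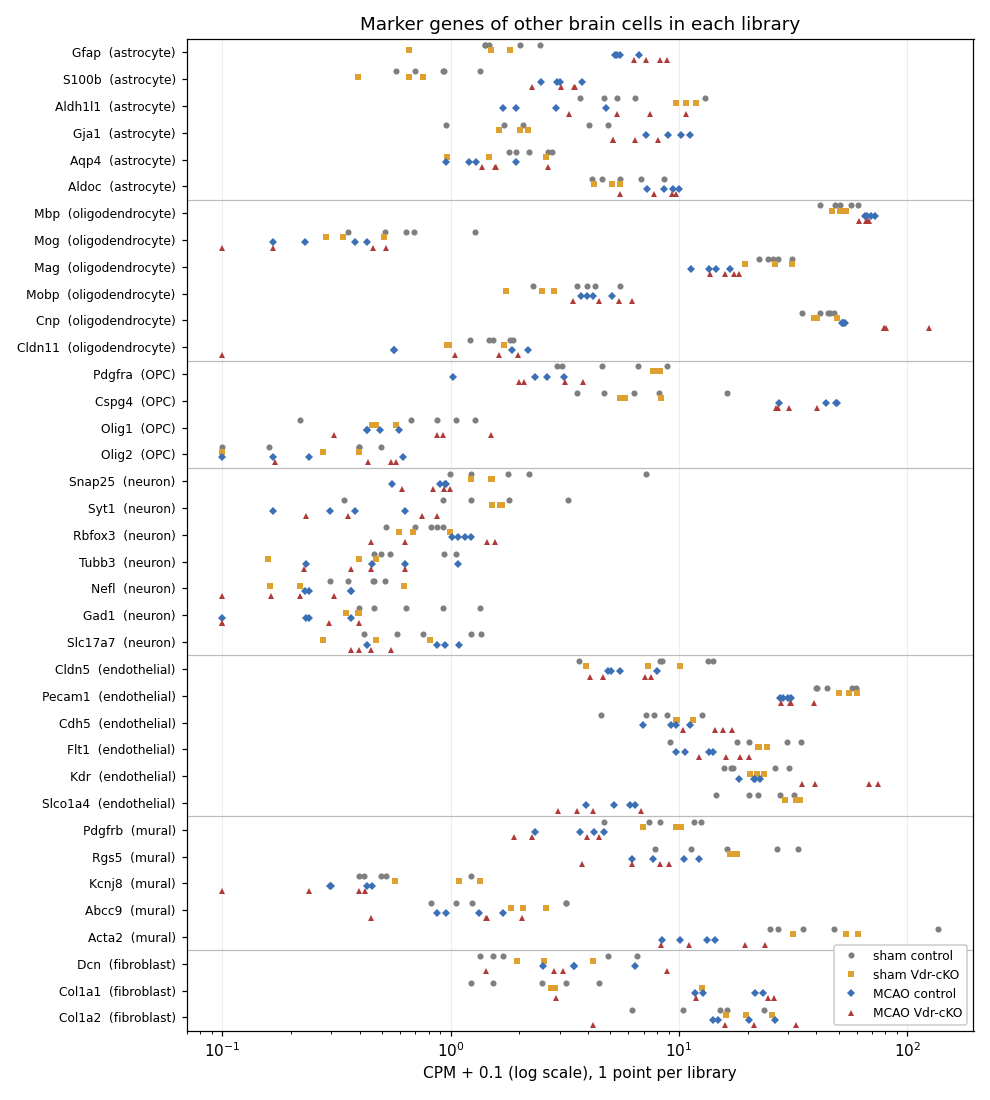
Level of each of the 37 marker genes in each library, as CPM + 0.1 on a log axis, with 1 point per library, colours and shapes for the 4 groups, and lines between cell types (OPC: oligodendrocyte precursor). Gfap, S100b, Gja1 and Cspg4 have their MCAO libraries to the right of all sham libraries, and Slco1a4 and Mag have them to the left. For Gja1 and Mag the nearest sham and MCAO libraries lie close together.

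RNA of another tissue was present at a higher summed level than the 37 genes. The sum of 5 choroid plexus genes, led by Ttr (the transthyretin secreted into the cerebrospinal fluid), was 13169, 6729, 11858, 4043 and 6530.4 CPM in sham control and 16419, 15709.9 and 11902 CPM in sham Vdr-cKO libraries. After MCAO it was 675, 1712, 1308 and 1085 CPM in control and 889, 2241, 2147 and 1143 CPM in Vdr-cKO libraries. Every sham library lay above every MCAO library, and replicates 1 and 3 were the highest of the sham controls. Ttr fell with MCAO in control (log2 fold change -2.86 ± 0.36 SE, adjusted p = 2.28e-05) and in Vdr-cKO mice (log2 fold change -3.21 ± 0.31 SE, adjusted p = 1.01e-05). After sham its genotype difference, 0.80 on the log2 scale, did not pass (adjusted p = 0.393). The sum of 4 ependymal genes was 6.05 to 34.5 and 22.1 to 27.5 CPM in the sham groups and 2.31 to 4.42 and 2.09 to 5.57 CPM in the MCAO groups. Markers of red blood cells summed to at most 39.6 CPM in any library. Those of T and NK cells (7 genes) summed to 9.35 to 11.6 and 7.8 to 9.95 CPM in sham control and sham Vdr-cKO libraries. After MCAO they summed to 2.31 to 5.21 CPM in control and 5.86 to 18.3 CPM in Vdr-cKO libraries, which did not overlap, with Cd3e at or below 1.36 CPM throughout. Per kilobase of exon, Cd4 had the highest mean of the 7 genes in each group. It was at 2.34 CPM in sham control and 0.849 CPM in MCAO control libraries. Between the same groups Cd3e (0.0152 and 0.058 CPM) and Trac (0.172 and 0.307 CPM) were higher after MCAO, and Cd3d, Cd8a, Nkg7 and Ncr1 were lower. The part of choroid plexus RNA, of monocytes and of T and NK cells in the differences of the marker genes was not tested.

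Expression was compared between genotypes after each surgery, between surgeries in each genotype, and for the difference of the genotype effect between surgeries. A gene rose or fell where edgeR gave an adjusted p under 0.05 over all genes tested. A filter on low counts left 28 of the 37 genes to be tested in all 5 comparisons, and Mog, Olig2, Nefl and Gad1 were tested in none. In all, 23 of the 37 were called in at least 1 comparison. The share of all genes called in at least 1 was not computed, so this count is not a result about the markers. After MCAO, 2 of 28 (Cnp and Kdr) rose with the Vdr-cKO genotype, where 3.24% of all genes tested did. None (0 of 28) fell, where 1.64% of all genes did, while 2 were lower at an unadjusted p under 0.05, DESeq2 called 1 and limma-voom 0. After sham surgery 0 of 32 rose and 0 fell in edgeR, DESeq2 and limma-voom, against 0.444% and 0.0244% of all genes in edgeR, with 1 higher and 1 lower at an unadjusted p under 0.05. With MCAO in control mice 8 of 30 rose and 12 fell (26.7% and 40%), against 31.2% and 32.3% of all genes. In Vdr-cKO mice 10 of 30 rose and 9 fell (33.3% and 30%), against 29.3% and 28.8%. Of 60 further markers of the same cell types, 44 were tested with MCAO in control mice, where 6 rose and 28 fell (13.6% and 63.6%). In Vdr-cKO mice 7 of 43 rose and 25 fell (16.3% and 58.1%). The genotype effect was larger after MCAO than after sham for 2 of 33 members tested, again Cnp and Kdr, against 1.4% of all genes. It was smaller for 0, against 1.15%, with 1 smaller at an unadjusted p under 0.05 and 0 by DESeq2 or limma-voom.

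The median log2 fold change of the tested markers was 0.02 with genotype after MCAO and -0.07 after sham, beside 0.01 and -0.02 over all genes tested. With MCAO it was -0.20 in control and 0.03 in Vdr-cKO mice, beside -0.05 and -0.02. The comparisons share libraries, so their values are given side by side and no likeness is drawn from them.

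**Figure D2:**
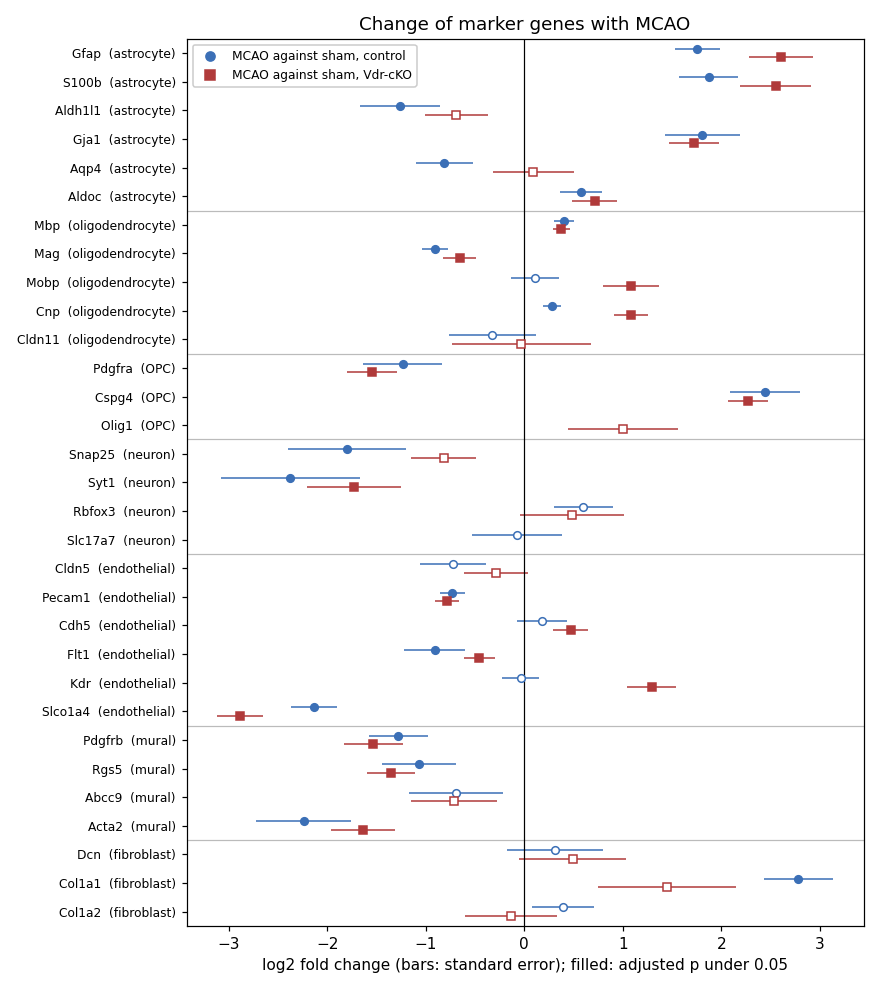
Log2 fold change of MCAO against sham for each marker gene tested, in control mice (circles) and in Vdr-cKO mice (squares), with standard errors. Filled symbols have an adjusted p under 0.05 in edgeR. Gfap, S100b, Gja1 and Cspg4 lie to the right of 0 and Slco1a4, Pdgfrb, Rgs5 and Acta2 to the left in both genotypes, while Kdr is filled in Vdr-cKO mice.

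Of the 6 astrocyte genes, 4 rose and 2 fell with MCAO in control mice, and 4 rose and 0 fell in Vdr-cKO mice. None was called with genotype. Gfap, the intermediate filament protein of astrocytes (chr11:102887336-102900912 on GRCm38), was at 1.31, 1.37, 2.37, 1.32 and 1.91 CPM in sham control and 0.556, 1.41 and 1.73 CPM in sham Vdr-cKO libraries. After MCAO, Gfap was at 5.42, 6.57, 5.28 and 5.16 CPM in control and 8.79, 8.13, 6.23 and 7.08 CPM in Vdr-cKO libraries. All MCAO libraries lay above all sham libraries, with a rise of 1.76 ± 0.23 SE on the log2 scale in control (adjusted p = 2.81e-05) and 2.60 ± 0.33 SE in Vdr-cKO mice (adjusted p = 6.39e-05). S100b, a calcium-binding protein, was at 0.477, 0.832, 1.25, 0.599 and 0.826 CPM in sham control and 0.556, 0.293 and 0.655 CPM in sham Vdr-cKO libraries. After MCAO, S100b was at 2.38, 3.64, 2.81 and 2.91 CPM in control and 2.16, 2.94, 3.38 and 3.4 CPM in Vdr-cKO libraries. Again the surgeries did not overlap (log2 fold change 1.87 ± 0.30 SE, adjusted p = 0.000157 in control, and 2.56 ± 0.36 SE, adjusted p = 0.000145 in Vdr-cKO mice). Gja1, the gap junction protein connexin 43, was at 4.77, 3.92, 0.854, 1.62 and 1.97 CPM in sham control and 1.92, 1.52 and 2.08 CPM in sham Vdr-cKO libraries. After MCAO, Gja1 was at 7.07, 11.1, 10.1 and 8.87 CPM in control and 5.02, 8.0, 5.04 and 6.34 CPM in Vdr-cKO libraries. It rose in control (log2 fold change 1.81 ± 0.38 SE, adjusted p = 0.00119) and in Vdr-cKO mice (log2 fold change 1.72 ± 0.26 SE, adjusted p = 0.000202). Of the MCAO Vdr-cKO libraries 3 lay below all MCAO control libraries, a difference that did not pass (log2 fold change -0.61 ± 0.20 SE, adjusted p = 0.115).

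Aldoc, a glycolytic aldolase, was at 8.46, 6.71, 4.07, 5.39 and 4.51 CPM in sham control and 5.01, 4.16 and 5.42 CPM in sham Vdr-cKO libraries. After MCAO, Aldoc was at 9.31, 9.88, 7.18 and 8.53 CPM in control and 9.63, 7.68, 9.19 and 5.41 CPM in Vdr-cKO libraries. The groups overlapped, and it rose in control (log2 fold change 0.57 ± 0.21 SE, adjusted p = 0.0334) and in Vdr-cKO mice (log2 fold change 0.71 ± 0.23 SE, adjusted p = 0.0194). In control mice the call was lost without any of sham control replicates 3, 4 and 5 or MCAO control replicates 1, 2 and 4 (adjusted p = 0.0566 to 0.0858), and in Vdr-cKO mice without sham Vdr-cKO replicate 2 (adjusted p = 0.0802). Aldh1l1, a folate enzyme used as a general astrocyte marker, was at 12.9, 4.57, 6.31, 3.59 and 5.28 CPM in sham control and 9.58, 11.8 and 10.6 CPM in sham Vdr-cKO libraries. After MCAO, Aldh1l1 was at 4.69, 2.8, 1.83 and 1.59 CPM in control and 10.7, 3.2, 7.35 and 5.27 CPM in Vdr-cKO libraries. It fell with MCAO in control mice (log2 fold change -1.26 ± 0.41 SE, adjusted p = 0.017), a call lost without MCAO control replicate 3 (adjusted p = 0.0549) or 4 (adjusted p = 0.0556). MCAO in Vdr-cKO mice gave -0.69 (adjusted p = 0.0834) and genotype after MCAO 1.27 (adjusted p = 0.104) on the log2 scale, and neither passed. Aqp4, the water channel of astrocyte endfeet, was at 2.56, 1.84, 1.71, 2.1 and 2.67 CPM in sham control and 0.865, 2.52 and 1.37 CPM in sham Vdr-cKO libraries. After MCAO, Aqp4 was at 0.859, 1.11, 1.83 and 1.19 CPM in control and 1.47, 2.56, 1.48 and 1.27 CPM in Vdr-cKO libraries. It fell in control mice (log2 fold change -0.81 ± 0.29 SE, adjusted p = 0.026), with the call lost without sham control replicate 5 or MCAO control replicate 1, 2 or 4 (adjusted p = 0.060 to 0.082), and did not pass in Vdr-cKO mice (log2 fold change 0.09, adjusted p = 0.86).

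Of 10 further astrocyte genes 8 were tested with MCAO. In control mice 7 fell and 1 rose, and in Vdr-cKO mice 5 fell and 0 rose (median log2 fold changes -1.81 and -1.36). The smallest adjusted p in control mice were those of Slc1a2, the main glutamate transporter of astrocytes (log2 fold change -2.34 ± 0.28 SE, adjusted p = 1.34e-05), Fgfr3, a growth factor receptor (log2 fold change -2.21 ± 0.27 SE, adjusted p = 1.63e-05), and Atp1b2, a subunit of the sodium pump (log2 fold change -2.22 ± 0.32 SE, adjusted p = 7.03e-05). Slc1a3, another glial glutamate transporter, was at 149, 146, 168, 160.3 and 124 CPM in sham control and 689.9, 477 and 619 CPM in sham Vdr-cKO libraries. After MCAO, Slc1a3 was at 164, 469.7, 118 and 486 CPM in control and 101, 76.8, 93.7 and 104 CPM in Vdr-cKO libraries. It thus rose with the Vdr-cKO genotype after sham (log2 fold change 1.96 ± 0.12 SE, adjusted p = 3.36e-05) and fell with it after MCAO (log2 fold change -1.73 ± 0.39 SE, adjusted p = 0.0283), and the difference between these effects was called (interaction -3.72 ± 0.46 SE on the log2 scale, adjusted p = 0.000186). MCAO control replicates 2 and 4 were close to the sham Vdr-cKO libraries and replicates 1 and 3 to the sham controls. The call after MCAO was lost without MCAO control replicate 2 or 4 or any MCAO Vdr-cKO replicate (adjusted p = 0.0528 to 0.0936).

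Promoters of 3 members are shown, of Gfap as a gene that rose with MCAO in both genotypes and of Cnp and Kdr as those that rose with genotype after MCAO. They are 300-base windows of RefSeq (GRCm38.p6) that end 50 bases past the transcription start, written 5′ to 3′ on the strand of the gene. Capitals mark the motif TTCNNNGAA, a palindromic pattern that STAT proteins bind.
Gfap (chr11:102897151-102897450, minus strand): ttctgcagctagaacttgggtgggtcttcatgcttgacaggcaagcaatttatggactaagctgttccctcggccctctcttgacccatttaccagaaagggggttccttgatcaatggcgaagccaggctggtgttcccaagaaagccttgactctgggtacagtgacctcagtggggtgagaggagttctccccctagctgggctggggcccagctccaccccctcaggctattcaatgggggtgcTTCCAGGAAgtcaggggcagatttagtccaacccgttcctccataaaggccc
Cnp (chr11:100574689-100574988, plus strand): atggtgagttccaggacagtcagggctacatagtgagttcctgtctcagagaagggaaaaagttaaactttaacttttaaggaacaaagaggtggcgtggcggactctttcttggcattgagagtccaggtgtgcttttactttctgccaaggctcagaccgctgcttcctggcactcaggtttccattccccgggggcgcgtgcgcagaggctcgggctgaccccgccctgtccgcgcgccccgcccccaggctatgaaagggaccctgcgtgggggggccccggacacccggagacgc
Kdr (chr5:75978406-75978705, minus strand): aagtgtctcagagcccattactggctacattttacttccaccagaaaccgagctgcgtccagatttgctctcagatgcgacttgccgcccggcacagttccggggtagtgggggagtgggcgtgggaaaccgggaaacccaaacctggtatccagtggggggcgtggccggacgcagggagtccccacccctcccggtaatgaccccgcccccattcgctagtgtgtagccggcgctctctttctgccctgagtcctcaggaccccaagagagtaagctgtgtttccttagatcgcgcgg
The Gfap window, which lies inside the span of the gene given above because another transcript starts upstream, holds 1 match at its bases 249 to 257. The Cnp and Kdr windows hold no match. A second motif was searched on both strands, the core of the interferon-stimulated response element, written as GAAA, any 2 bases and GAAA again, and it is in none of the 3 windows. Of all 32851 windows, 8.3% hold the first motif and 3.44% the second. Windows were matched for 27 of the 37 members, of which 3 (Aldoc, Gfap and Mag) hold the first and 0 the second. A match is a run of letters, and its absence concerns these windows alone.

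The oligodendrocyte genes went different ways. Of 5 tested, 2 rose and 1 fell with MCAO in control mice, and 3 rose and 1 fell in Vdr-cKO mice. Mbp, the myelin basic protein, whose locus also gives rise to golli transcripts found in other cells, was at 48.3, 60.9, 41.3, 56.6 and 50.8 CPM in sham control and 50.5, 46.6 and 53.6 CPM in sham Vdr-cKO libraries. After MCAO, Mbp was at 66.8, 69.5, 65.1 and 71.9 CPM in control and 66.4, 61.2, 67.6 and 65.8 CPM in Vdr-cKO libraries. Every MCAO library was above every sham library, with a rise of 0.40 ± 0.10 SE on the log2 scale in control (adjusted p = 0.00376) and 0.38 ± 0.09 SE in Vdr-cKO mice (adjusted p = 0.00349). The nearest were MCAO Vdr-cKO replicate 2 (957 counts, 61.2 CPM) and sham control replicate 2 (1025 counts, 60.9 CPM), a margin within counting error. Mag, an adhesion protein of the myelin layer next to the axon, was at 24.3, 25.8, 22.2, 27.1 and 31.1 CPM in sham control and 26.3, 19.4 and 31.1 CPM in sham Vdr-cKO libraries. After MCAO, Mag was at 11.2, 16.6, 14.5 and 13.5 CPM in control and 15.8, 13.6, 18.1 and 17.3 CPM in Vdr-cKO libraries. It moved the opposite way to Mbp, with every MCAO library below every sham library (log2 fold change -0.91 ± 0.13 SE, adjusted p = 7.54e-05 in control, and -0.66 ± 0.17 SE, adjusted p = 0.00635 in Vdr-cKO mice). The nearest were MCAO Vdr-cKO replicate 3 (306 counts, 18.1 CPM) and sham Vdr-cKO replicate 2 (331 counts, 19.4 CPM), a margin within counting error. Mobp, a small basic protein of compact myelin, was at 2.21, 3.86, 3.48, 4.19 and 5.4 CPM in sham control and 2.41, 1.64 and 2.74 CPM in sham Vdr-cKO libraries. After MCAO, Mobp was at 3.63, 5.01, 4.08 and 3.84 CPM in control and 3.35, 4.35, 5.34 and 6.14 CPM in Vdr-cKO libraries. It rose with MCAO in Vdr-cKO mice (log2 fold change 1.08 ± 0.28 SE, adjusted p = 0.0074) and did not pass in control mice (log2 fold change 0.11 ± 0.24 SE, adjusted p = 0.713), a difference between genotypes that itself did not pass (interaction 0.97, adjusted p = 0.231). Cldn11, a claudin of myelin, ranged from 0 to 2.08 CPM and was called in no comparison. Mog, a surface protein of mature myelin, ranged from 0 to 1.18 CPM. Of 8 further oligodendrocyte genes 3 were tested, of which 1 fell and 0 rose in control mice and 2 fell and 0 rose in Vdr-cKO mice. Mal, a protein of myelin and other membranes, fell in control (log2 fold change -1.09 ± 0.32 SE, adjusted p = 0.00965) and in Vdr-cKO mice (log2 fold change -1.54 ± 0.35 SE, adjusted p = 0.0032).

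Cnp was 1 of the 2 members that rose with genotype after MCAO. It encodes the cyclic nucleotide phosphodiesterase of myelin and is made at lower levels by other cells (chr11:100574904-100591729 on GRCm38). It was at 45.9, 47.6, 34.6, 44.7 and 41.5 CPM in sham control and 40.1, 38.7 and 49.1 CPM in sham Vdr-cKO libraries. After MCAO, Cnp was at 51.9, 53.3, 52.3 and 52.1 CPM in control and 124, 80.3, 78.6 and 78.6 CPM in Vdr-cKO libraries. The sham groups overlapped (log2 fold change -0.04, adjusted p = 0.926), and after MCAO the Vdr-cKO libraries were all above the controls, with replicate 1 the highest. The log2 fold change with genotype after MCAO was 0.78 ± 0.14 SE (adjusted p = 0.0065, edgeR). A 2-sided exact permutation test over 4 against 4 libraries gave p = 0.0286, the smallest it allows. Without MCAO Vdr-cKO replicates 1 and 2, left out after the values were seen, the fold change was 0.59 (adjusted p = 0.000783). With MCAO, Cnp rose in control (log2 fold change 0.28 ± 0.09 SE, adjusted p = 0.0142, with adjusted p = 0.0596 in 1 fit of all libraries) and in Vdr-cKO mice (log2 fold change 1.08 ± 0.17 SE, adjusted p = 0.000318). The genotype effect was larger after MCAO than after sham by 0.79 ± 0.20 SE (adjusted p = 0.0355). That call was lost on leaving out any 1 of 10 libraries, namely sham control 1, 2, 4 or 5, sham Vdr-cKO 1 or 2 or any MCAO control (adjusted p = 0.0503 to 0.139). With genotype after MCAO, Mbp gave -0.07, Mag 0.21, Mobp 0.21 and Cldn11 -0.13 on the log2 scale, with no call (adjusted p = 0.473 to 0.951). Of the 3 further oligodendrocyte genes tested, 1 fell with genotype after MCAO and 0 rose. It was Trf, the iron carrier transferrin, which oligodendrocytes and choroid plexus make (log2 fold change -0.53 ± 0.14 SE, adjusted p = 0.0491), with the call lost without any 1 of the 8 libraries but MCAO control 1 (adjusted p = 0.0514 to 0.154). Trf was at 1020.6, 1382, 1455 and 1449 CPM in MCAO control and 764, 880, 1018.5 and 1017 CPM in MCAO Vdr-cKO libraries. Averaged over all libraries it was at 346 CPM per kb, beside 6.96 CPM per kb for Mbp. Which cells this Trf RNA came from was not tested.

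In the precursor list 1 gene rose and 1 fell with MCAO in each genotype. Cspg4, the NG2 proteoglycan of precursors and pericytes, was at 8.11, 6.24, 3.48, 4.61 and 16.2 CPM in sham control and 5.69, 5.39 and 8.22 CPM in sham Vdr-cKO libraries. After MCAO, Cspg4 was at 27.3, 49.2, 48.8 and 43.9 CPM in control and 26.5, 27.1, 40.0 and 30.3 CPM in Vdr-cKO libraries. All MCAO libraries were above all sham libraries (log2 fold change 2.45 ± 0.35 SE, adjusted p = 6.9e-05 in control, and 2.27 ± 0.20 SE, adjusted p = 6.69e-06 in Vdr-cKO mice). With genotype after MCAO it gave -0.45 (adjusted p = 0.213). Pdgfra, the growth factor receptor that defines the precursors and is also present on fibroblasts, was at 8.76, 4.52, 6.5, 2.82 and 2.99 CPM in sham control and 7.85, 8.14 and 7.56 CPM in sham Vdr-cKO libraries. After MCAO, Pdgfra was at 0.925, 2.54, 3.02 and 2.25 CPM in control and 1.88, 3.71, 3.08 and 2.0 CPM in Vdr-cKO libraries. It fell in control (log2 fold change -1.23 ± 0.40 SE, adjusted p = 0.0165) and in Vdr-cKO mice (log2 fold change -1.55 ± 0.25 SE, adjusted p = 0.000364), and sham control replicates 4 and 5 overlapped the MCAO controls. Olig1 and Olig2, the transcription factors of the lineage, were near the limit of counting at 0.12 to 1.4 CPM and 0 to 0.52 CPM, with no call. Of 8 further precursor genes 6 were tested in control mice, of which 5 fell and 1 rose, and 5 in Vdr-cKO mice, of which 2 fell and 1 rose. Bcan, a matrix proteoglycan, fell in control mice (log2 fold change -2.22 ± 0.32 SE, adjusted p = 7.02e-05) and gave -0.73 in Vdr-cKO mice (adjusted p = 0.198). Vcan, a matrix proteoglycan that monocytes also make, was at 2.62, 2.73, 3.02, 1.44 and 1.84 CPM in sham control and 82.1, 20.9, 26.8 and 30.9 CPM in MCAO control libraries, and it rose in control (log2 fold change 4.10 ± 0.40 SE, adjusted p = 2.37e-06) and in Vdr-cKO mice (log2 fold change 4.45 ± 0.67 SE, adjusted p = 0.000224).

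Of the 7 neuronal genes 4 were tested with MCAO in control mice, of which 2 fell and 0 rose, and 3 in Vdr-cKO mice, of which 1 fell and 0 rose. Snap25, a protein of synaptic vesicle fusion, was at 7.03, 1.13, 2.1, 1.68 and 0.89 CPM in sham control and 1.42, 1.41 and 1.13 CPM in sham Vdr-cKO libraries. After MCAO, Snap25 was at 0.859, 0.455, 0.844 and 0.794 CPM in control and 0.837, 0.512, 0.889 and 0.734 CPM in Vdr-cKO libraries. Sham control replicate 1 stood far above the rest. The MCAO libraries were all below the sham libraries, but by a margin within counting error. The nearest were sham control replicate 5 (14 counts, 0.88978 CPM) and MCAO Vdr-cKO replicate 3 (15 counts, 0.88929 CPM). Snap25 fell with MCAO in control mice (log2 fold change -1.80 ± 0.60 SE, adjusted p = 0.0193), by 0.97 without sham control replicate 1 (adjusted p = 0.0348). The call was lost without MCAO control replicate 2 (adjusted p = 0.0555), and Vdr-cKO mice gave -0.82 (adjusted p = 0.0545). Syt1, the calcium sensor of synaptic vesicles, was at 3.16, 1.13, 1.71, 0.24 and 0.826 CPM in sham control and 1.42, 1.58 and 1.55 CPM in sham Vdr-cKO libraries. After MCAO, Syt1 was at 0.528, 0.195, 0.281 and 0.0662 CPM in control and 0.768, 0.256, 0.652 and 0.134 CPM in Vdr-cKO libraries. It fell in control (log2 fold change -2.37 ± 0.71 SE, adjusted p = 0.0107) and in Vdr-cKO mice (log2 fold change -1.73 ± 0.47 SE, adjusted p = 0.00936), with at most 53 counts in a library. Rbfox3, the neuronal nuclear antigen NeuN, was at 0.596, 0.772, 0.723, 0.419 and 0.826 CPM in sham control and 0.494, 0.586 and 0.893 CPM in sham Vdr-cKO libraries. After MCAO, Rbfox3 was at 1.06, 0.975, 0.914 and 1.12 CPM in control and 0.349, 1.34, 0.534 and 1.47 CPM in Vdr-cKO libraries, with log2 fold changes of 0.60 in control (adjusted p = 0.101) and 0.48 in Vdr-cKO mice (adjusted p = 0.454). Tubb3 (a tubulin), Nefl (a neurofilament), Gad1 (the enzyme that makes GABA) and Slc17a7 (a glutamate carrier of synaptic vesicles) had at most 21 counts in any library and no call. Of 10 further neuronal genes, 5 were tested in control mice, of which 3 fell and 0 rose, and 6 in Vdr-cKO mice, of which 3 fell and 1 rose. The gene that rose in Vdr-cKO mice was Slc32a1, the GABA carrier of synaptic vesicles (log2 fold change 2.60 ± 0.58 SE, adjusted p = 0.00282). It had 2 to 28 counts per library, with sham Vdr-cKO libraries near the limit of counting at 0.119 to 0.234 CPM. In control mice Slc32a1 was not tested, at 0.178 to 0.417 CPM after sham and 0.633 to 1.85 CPM after MCAO. Those that fell in control mice were Camk2a, a synaptic kinase (log2 fold change -1.94, adjusted p = 3.63e-06), Map2, a protein of dendrites (-2.30, adjusted p = 1.84e-05), and Meg3, a long noncoding RNA (-4.73, adjusted p = 0.00569). In sham control libraries Meg3 was at 176, 6.18, 7.23, 4.61 and 11.7 CPM, where replicate 1 stood alone as it did for Snap25, and without it the fold change was -2.26 (adjusted p = 0.000135).

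Of the 6 endothelial genes, 3 fell and 0 rose with MCAO in control mice, and 3 fell and 2 rose in Vdr-cKO mice. Slco1a4, an organic anion transporter of brain vessels that is also found in choroid plexus (chr6:141805440-141856199 on GRCm38), was at 27.7, 22.1, 31.9, 14.4 and 20.1 CPM in sham control and 33.8, 32.6 and 29 CPM in sham Vdr-cKO libraries. After MCAO, Slco1a4 was at 3.83, 5.98, 6.33 and 5.09 CPM in control and 2.86, 6.72, 4.09 and 3.47 CPM in Vdr-cKO libraries. Its MCAO libraries were all below its sham libraries (log2 fold change -2.13 ± 0.23 SE, adjusted p = 6.61e-06 in control, and -2.88 ± 0.23 SE, adjusted p = 3.2e-06 in Vdr-cKO mice). Pecam1 was at 57, 40.3, 59.2, 39.7 and 44.4 CPM in sham control and 60.3, 50.3 and 55.2 CPM in sham Vdr-cKO libraries. After MCAO, Pecam1 was at 29.8, 30.8, 28.4 and 27.5 CPM in control and 30.6, 38.9, 30.8 and 27.8 CPM in Vdr-cKO libraries. It fell with no overlap between surgeries (log2 fold change -0.73 ± 0.13 SE, adjusted p = 0.000339 in control, and -0.79 ± 0.12 SE, adjusted p = 0.000258 in Vdr-cKO mice). The nearest were MCAO Vdr-cKO replicate 2 (608 counts, 38.9 CPM) and sham control replicate 4 (662 counts, 39.7 CPM), a margin within counting error. Flt1, a receptor that binds vascular endothelial growth factor, was at 34.2, 17.9, 29.8, 9.05 and 20.1 CPM in sham control and 24.2, 22.4 and 22.1 CPM in sham Vdr-cKO libraries. After MCAO, Flt1 was at 10.6, 13.4, 13.9 and 9.59 CPM in control and 16, 20.2, 18.3 and 12.1 CPM in Vdr-cKO libraries. Sham control replicates 1 and 3 were the highest, as for the choroid plexus genes. Flt1 fell in control (log2 fold change -0.91 ± 0.31 SE, adjusted p = 0.0209) and in Vdr-cKO mice (log2 fold change -0.46 ± 0.16 SE, adjusted p = 0.0313). The call in control mice was lost without MCAO control replicate 1 or 4 (adjusted p = 0.0571 and 0.0634), and that in Vdr-cKO mice without any sham Vdr-cKO replicate or without MCAO Vdr-cKO replicate 1 or 4 (adjusted p = 0.0584 to 0.112).

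Cdh5, the cadherin of endothelial junctions, was at 12.5, 7.07, 8.74, 4.43 and 7.69 CPM in sham control and 11.4, 9.72 and 9.64 CPM in sham Vdr-cKO libraries. After MCAO, Cdh5 was at 9.64, 11.1, 9.14 and 6.88 CPM in control and 17, 15.5, 14.3 and 10.3 CPM in Vdr-cKO libraries. It rose with MCAO in Vdr-cKO mice (log2 fold change 0.47 ± 0.18 SE, adjusted p = 0.0408), where sham and MCAO libraries did not lie apart. The call was lost without sham Vdr-cKO replicate 2 or 3 or MCAO Vdr-cKO replicate 1, 2 or 3 (adjusted p = 0.0609 to 0.121), and genotype after MCAO gave 0.63 (adjusted p = 0.0809). Cldn5, the main claudin of the blood-brain barrier, ranged from 3.53 to 14 CPM with no call (log2 fold change -0.72 with MCAO in control mice, adjusted p = 0.0785). All 10 further endothelial genes were tested. In control mice 5 fell and 1 rose, and in Vdr-cKO mice 6 fell and 2 rose (median log2 fold changes -0.91 and -0.85). In control mice Eng, a co-receptor of TGF-beta also present on macrophages, fell (log2 fold change -1.23 ± 0.09 SE, adjusted p = 1.63e-07), and so did Itm2a, a membrane protein of vessels and other tissues (log2 fold change -1.46 ± 0.28 SE, adjusted p = 0.00065). Slc2a1, the glucose transporter of the barrier and of activated macrophages, rose (log2 fold change 1.14 ± 0.19 SE, adjusted p = 0.000219).

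Kdr was the other member that rose with genotype after MCAO. It encodes the main signalling receptor for vascular endothelial growth factor (chr5:75932827-75978458 on GRCm38). It was at 30.3, 16.9, 26.2, 15.7 and 17.2 CPM in sham control and 23.4, 20.4 and 22 CPM in sham Vdr-cKO libraries. After MCAO, Kdr was at 22.5, 21.5, 21.2 and 18.1 CPM in control and 74.2, 67.7, 34.3 and 39.3 CPM in Vdr-cKO libraries. The sham groups overlapped (log2 fold change 0.01, adjusted p = 0.989), and after MCAO every Vdr-cKO library was above every control library, with replicates 1 and 2 the highest. The mean over the 4 Vdr-cKO libraries was 53.9 ± 20 CPM and over the 4 controls 20.8 ± 1.88 CPM (SD). The log2 fold change with genotype was 1.36 ± 0.22 SE (adjusted p = 0.00419, edgeR), and the 2-sided exact permutation test gave p = 0.0286, the smallest it allows. Without replicates 1 and 2 it was 0.82 (adjusted p = 0.00213). With MCAO, Kdr rose in Vdr-cKO mice (log2 fold change 1.29 ± 0.25 SE, adjusted p = 0.00115), by 0.76 without those replicates (adjusted p = 0.000197). Control mice gave -0.04 (adjusted p = 0.879). The genotype effect was larger after MCAO than after sham by 1.33 ± 0.34 SE (adjusted p = 0.0425). That call was lost on leaving out any 1 of 11 libraries, namely sham control 1 or 3, any sham Vdr-cKO, any MCAO control or MCAO Vdr-cKO 1 or 2 (adjusted p = 0.052 to 0.131). Without both MCAO Vdr-cKO 1 and 2 the difference was 0.77 (adjusted p = 0.216).

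The other 5 endothelial members gave log2 fold changes with genotype after MCAO from -0.31 (Slco1a4) to 0.63 (Cdh5), with Flt1 at 0.48 (adjusted p = 0.161), and none was called. Of the further endothelial genes 1 rose with genotype after MCAO and 0 fell. It was Abcb1a, a drug efflux pump of the barrier (log2 fold change 1.01 ± 0.26 SE, adjusted p = 0.0486), with the call lost without any 1 of the 8 libraries but MCAO Vdr-cKO 4 (adjusted p = 0.050 to 0.15). In the MCAO Vdr-cKO group, replicates 1 and 2 were also the highest for Irf7, an interferon-induced transcription factor chosen after its values were seen, at 1139, 800.2, 526 and 572 CPM, and for Ly6c2, a surface protein of monocytes, at 358, 454, 146 and 184 CPM. In MCAO control libraries Irf7 was at 91, 78.9, 79 and 61.9 CPM and Ly6c2 at 35.1, 18.1, 22.2 and 19.1 CPM. Ly6c2 was the monocyte gene picked here out of 6, and the genotypes overlapped in the sum of the 6. That sum was 3733, 2622, 2477 and 2498 CPM in MCAO control and 4028, 2945, 1709 and 1461 CPM in MCAO Vdr-cKO libraries. Fn1 had a lower mean in MCAO Vdr-cKO libraries, unlike the other monocyte genes. The part of Irf7 or of the monocyte genes in the Kdr and Cnp differences was not tested.

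**Figure D3:**
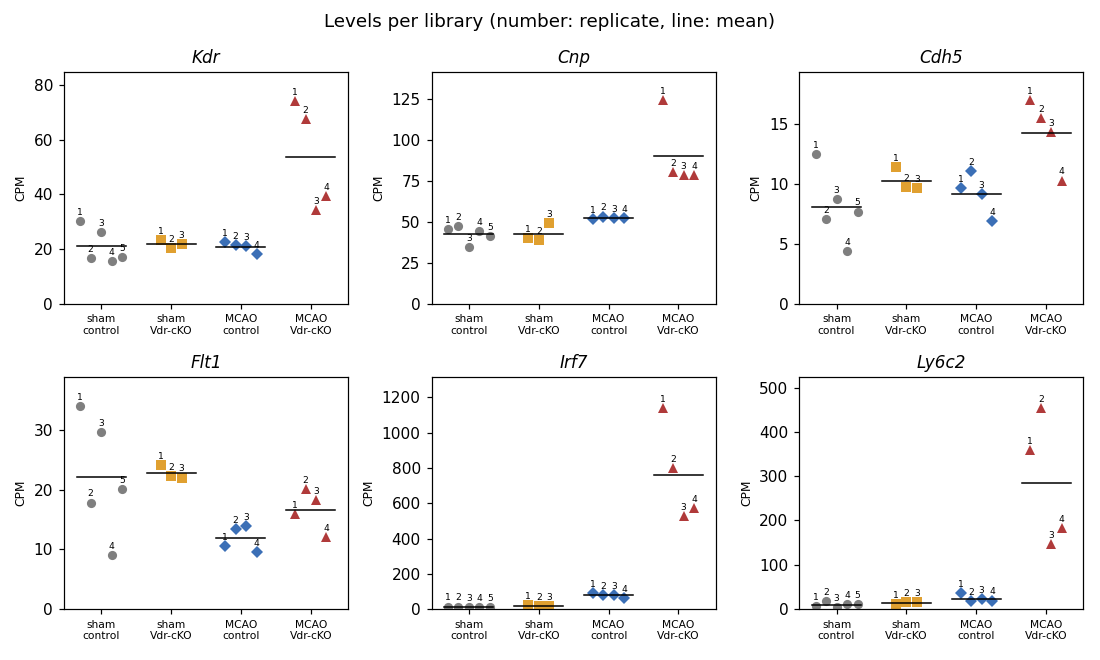
Level in CPM (linear axis from 0) of Kdr, Cnp, Cdh5, Flt1, Irf7 and Ly6c2 in each library, by group, with the replicate number above each point and the group mean as a line. Kdr, Cnp, Irf7 and Ly6c2 have all 4 MCAO Vdr-cKO libraries above all other libraries, and Cdh5 and Flt1 have overlapping groups.

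Of the 5 mural genes 4 were tested with MCAO, and 3 fell and 0 rose in each genotype. Acta2, the actin of smooth muscle (chr19:34241090-34255590 on GRCm38), was at 34.7, 47.6, 24.8, 27 and 136 CPM in sham control and 60.6, 31.6 and 53.8 CPM in sham Vdr-cKO libraries. After MCAO, Acta2 was at 13.2, 14.2, 9.99 and 8.34 CPM in control and 8.24, 23.8, 19.4 and 10.9 CPM in Vdr-cKO libraries. The surgeries did not overlap, with MCAO Vdr-cKO replicate 2 (23.8 CPM) and sham control replicate 3 (24.8 CPM) the nearest. Sham control replicate 5 stood apart, as it did for Myh11, the smooth muscle myosin, chosen for this after its values were seen, at 44.6, 56, 22.2, 29.1 and 139.9 CPM in sham control libraries. Acta2 fell in control (log2 fold change -2.24 ± 0.48 SE, adjusted p = 0.00138) and in Vdr-cKO mice (log2 fold change -1.64 ± 0.33 SE, adjusted p = 0.00149). Without sham control replicate 5, control mice gave -1.56 (adjusted p = 0.000133). Pdgfrb, the receptor that recruits pericytes to vessels, was at 12.4, 7.31, 8.15, 4.61 and 11.6 CPM in sham control and 10.1, 6.85 and 9.64 CPM in sham Vdr-cKO libraries. After MCAO, Pdgfrb was at 3.57, 4.62, 4.15 and 2.25 CPM in control and 2.16, 4.35, 3.85 and 1.8 CPM in Vdr-cKO libraries. It fell in control (log2 fold change -1.28 ± 0.30 SE, adjusted p = 0.00253) and in Vdr-cKO mice (log2 fold change -1.53 ± 0.30 SE, adjusted p = 0.0013), and sham control replicate 4 lay within the MCAO controls. Rgs5, a regulator of G-protein signalling in pericytes, was at 26.7, 11.2, 33, 7.79 and 16.1 CPM in sham control and 17.9, 17.3 and 16.7 CPM in sham Vdr-cKO libraries. After MCAO, Rgs5 was at 6.14, 12.1, 10.4 and 7.61 CPM in control and 6.14, 8.96, 8.18 and 3.67 CPM in Vdr-cKO libraries. It fell in control (log2 fold change -1.07 ± 0.38 SE, adjusted p = 0.026) and in Vdr-cKO mice (log2 fold change -1.35 ± 0.24 SE, adjusted p = 0.000736), and sham control replicates 2 and 4 lay within the range of the MCAO controls. In control mice the Rgs5 call was lost without sham control replicate 1 or 3 or MCAO control replicate 1 or 4 (adjusted p = 0.0563 to 0.0792).

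Kcnj8 and Abcc9, which form a potassium channel of pericytes, ranged from 0 to 1.25 CPM and from 0.349 to 3.1 CPM with no call. Of 8 further mural genes 7 were tested in control mice, of which 5 fell and 1 rose. Notch3, a receptor of mural cells, fell (log2 fold change -2.17 ± 0.34 SE, adjusted p = 0.000129), as did Vtn, a matrix protein made by pericytes (log2 fold change -2.02 ± 0.33 SE, adjusted p = 0.000193). Anpep, an aminopeptidase of pericytes that myeloid cells also carry, was at 3.81, 2.97, 3.68, 2.1 and 2.22 CPM in sham control and 65.3, 103, 83.9 and 89.8 CPM in MCAO control libraries, and it rose (log2 fold change 4.85 ± 0.18 SE, adjusted p = 8.41e-10).

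Of the 3 fibroblast genes, 1 rose with MCAO in control mice and 0 in Vdr-cKO mice, and 0 fell in either. Col1a1, a chain of type I collagen, was at 4.35, 1.13, 3.09, 1.44 and 2.42 CPM in sham control and 2.66, 2.75 and 12.5 CPM in sham Vdr-cKO libraries. After MCAO, Col1a1 was at 12.7, 21.3, 23.1 and 11.6 CPM in control and 2.79, 26, 24.4 and 11.8 CPM in Vdr-cKO libraries. In control mice it rose with no overlap (log2 fold change 2.78 ± 0.35 SE, adjusted p = 2.15e-05). In Vdr-cKO mice, where MCAO replicate 1 was the lowest of its group and sham replicate 3 the highest, the surgeries overlapped and the difference did not pass (log2 fold change 1.45 ± 0.70 SE, adjusted p = 0.0995). Col1a2, the partner chain, was at 23.4, 10.3, 16.2, 6.11 and 15 CPM in sham control and 19.5, 16 and 25.4 CPM in sham Vdr-cKO libraries. After MCAO, Col1a2 was at 14, 20.2, 26.2 and 14.7 CPM in control and 4.12, 32.5, 21.2 and 15.8 CPM in Vdr-cKO libraries. Dcn, a small proteoglycan that binds collagen, ranged from 1.25 to 8.77 CPM. Neither was called, with log2 fold changes of 0.39 and 0.31 with MCAO in control and -0.14 and 0.49 in Vdr-cKO mice. MCAO Vdr-cKO replicate 1 was the lowest and replicate 2 the highest of its group in all 3 genes. Of 6 further fibroblast genes 5 were tested with MCAO in each genotype, of which 2 rose and 2 fell. In control mice Pdpn, a mucin-like protein also found on macrophages, rose (log2 fold change 3.02 ± 0.28 SE, adjusted p = 1.34e-06), as did Col3a1, another collagen (log2 fold change 2.36 ± 0.25 SE, adjusted p = 5.15e-06). Igf2, a growth factor of meninges and choroid plexus, fell (log2 fold change -2.86 ± 0.34 SE, adjusted p = 1.51e-05). Col6a3, a chain of type VI collagen, fell with the Vdr-cKO genotype after MCAO (log2 fold change -0.63 ± 0.10 SE, adjusted p = 0.00411), and this effect differed from that after sham (interaction -0.80, adjusted p = 0.00541).

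The members of each list were also summed, as a description with no test. In sham control and MCAO control libraries the astrocyte sum averaged 19.6 ± 6.29 and 30.5 ± 3.11 CPM (SD, n = 5 and 4), the endothelial sum 132 ± 36.9 and 82.1 ± 7.44 CPM, and the mural sum 84.1 ± 47.3 and 25.5 ± 5.12 CPM. In sham and MCAO Vdr-cKO libraries the astrocyte sum averaged 20.7 ± 1.9 and 32.9 ± 3.69 CPM (SD, n = 3 and 4), the endothelial sum 149 ± 10.6 and 127 ± 28.2 CPM, and the mural sum 77.8 ± 17 and 26.8 ± 11.1 CPM. The neuron sum ranged from 3.89 to 13.8 CPM in sham control and 4.39 to 5.0 CPM in sham Vdr-cKO libraries. After MCAO it ranged from 3.45 to 3.7 CPM in control and 2.86 to 3.32 CPM in Vdr-cKO libraries. The surgeries did not overlap, but by a margin within counting error. The nearest were sham control replicate 4 at 3.89 CPM and MCAO control replicate 1 at 3.7 CPM. The endothelial sum of MCAO Vdr-cKO libraries, 145, 156, 109 and 97.5 CPM, lay above that of every MCAO control library (72.6 to 90.6 CPM), and Kdr made up 74.2, 67.7, 34.3 and 39.3 CPM of it. The oligodendrocyte sum was 134 to 147 CPM in MCAO control and 161 to 210.3 CPM in MCAO Vdr-cKO libraries, and without Cnp it was 82.4 to 93.4 and 80.8 to 92.4 CPM.

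**Figure D4:**
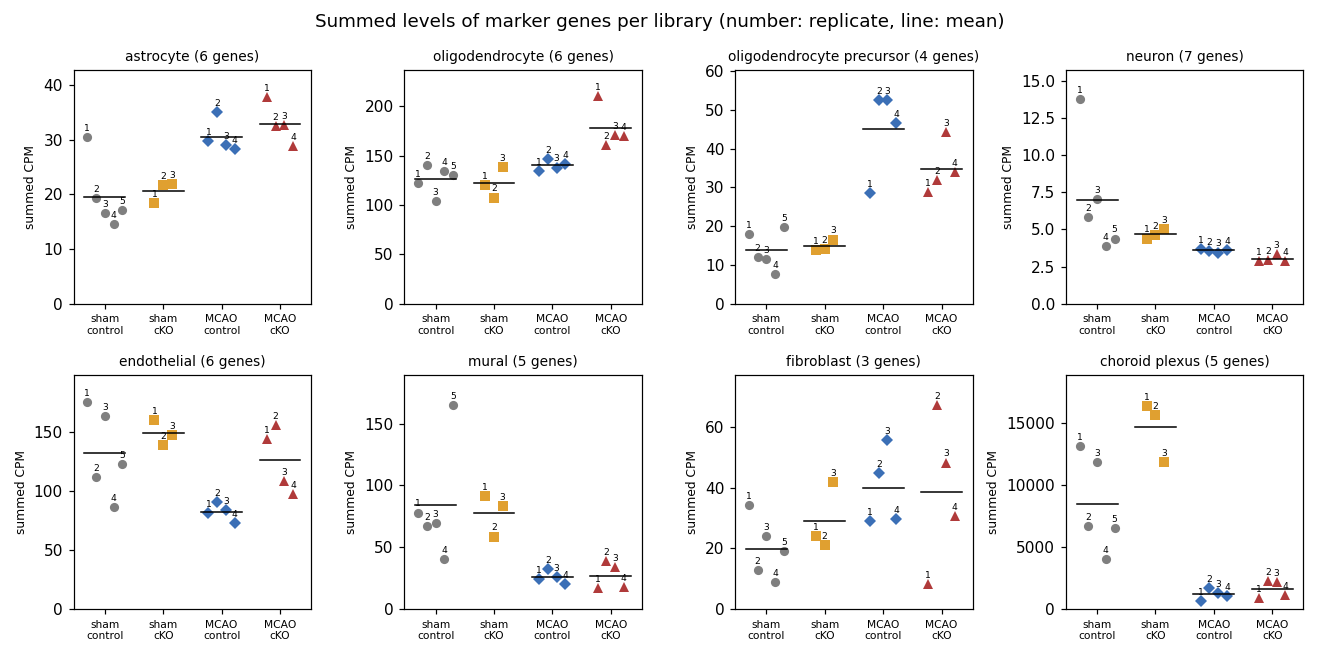
Summed CPM (linear axis from 0) of the members of each cell type list and of 5 choroid plexus genes in each library, with the replicate number above each point and the group mean as a line. Neuron, mural and choroid plexus sums are lower in every MCAO library than in every sham library, and sham control replicate 1 has the highest neuron sum. The nearest sham and MCAO libraries are at 3.89 and 3.7 CPM for the neuron sum and at 40.5 and 38.8 CPM for the mural sum.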

How the data were processed

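The authors purified microglia/macrophages of each mouse group on day 3, sequenced their RNA and deposited whole-number counts per gene for 16 libraries, named by sample in the column headers. The submitters' notes name bcl2fastq, HISAT2 2.1.0, TopHat, limma and the build GRCm38. The counting tool, its annotation and whether strand was used are not given in the sources used here, so overlapping and antisense genes cannot be told apart. The labels name removal of ribosomal RNA and the paper selection of poly-A RNA, which was not reconciled.

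Counts were analysed in R 4.3.3 with the quasi-likelihood test of edgeR 4.0.16 on the groups of each comparison (all 16 libraries for the interaction), with TMM scaling, filterByExpr and Benjamini-Hochberg adjustment over all genes tested. A gene was called at an adjusted p under 0.05. The test was checked on simulated counts with known changes in well-counted genes and the same spread for each gene. That check does not cover members with few counts or a wide spread. Alternatives were RLE scaling, no filter, at least 10 counts in every library, DESeq2 1.42.0, limma-voom (limma 3.58.1), 1 fit of all libraries, a block for the replicate number, a log2 fold change above 1, and leaving out each library. The design has no more than 5 libraries in a group, and depth was 13795946 to 17836796 counts.

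All 37 genes are accounted for, with the level in every library for those called in a comparison and for the 2 highest of each cell type, and up to 3 further markers per cell type were named by smallest adjusted p. The genes, lists and tests were chosen with earlier results of these data known. Positions come from the GENCODE M21 annotation of GRCm38, exon lengths were summed from it, and promoters come from RefSeq (GRCm38.p6). All libraries within a group differed by more than sampling noise, and each was counted as 1 sample. Some genes of the marker lists are not reported here.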

Additional observations from a re-analysis of the deposited data

Results flagged for a closer look

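Within groups of 4 or 5 libraries, 111 checks of a single library set apart from the others by Dixon's criterion found 6, and chance sets apart about 1 group in 20. Sham control replicate 1 had Snap25 at 7.03 CPM, where the other sham controls had 0.89 to 2.1 CPM, and Kcnj8 at 1.13 CPM, where they had 0.297 to 0.419 CPM. Sham control replicate 5 had Acta2 at 136 CPM, above 24.8 to 47.6 CPM. MCAO control replicate 2 had Snap25 at 0.455 CPM, below 0.794 to 0.859 CPM. In the MCAO Vdr-cKO group, replicate 2 had Aqp4 at 2.56 CPM, above 1.27 to 1.48 CPM, and replicate 1 had Cnp at 124 CPM, above 78.6 to 80.3 CPM.

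The genotype effect differed between surgeries, by edgeR's interaction test, for 4 genes of these cell types. Of 33 members tested, 2 were called higher (6.06%) and 0 lower. Of 48 further markers tested, 0 were called higher and 2 lower (4.17%). Over all genes tested, 1.4% were higher and 1.15% lower. The effect after MCAO minus that after sham was 0.79 for Cnp (adjusted p = 0.0355) and 1.33 for Kdr (adjusted p = 0.0425) on the log2 scale. It was -3.72 for Slc1a3 (adjusted p = 0.000186) and -0.80 for Col6a3 (adjusted p = 0.00541). The Cnp and Kdr calls were lost on leaving out many of the single libraries, as given above. They were also lost with limma-voom (adjusted p = 0.0511 and 0.108). The Col6a3 call was lost without sham control replicates 2, 4 and 5, left out after the data were seen (adjusted p = 0.0874, edgeR). Slc1a3 stood at 477 to 689.9 CPM in sham Vdr-cKO and 76.8 to 104 CPM in MCAO Vdr-cKO libraries, and the 4 MCAO controls were split between 118 and 164 CPM and 469.7 and 486 CPM.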

How the results depend on the processing

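Of 43 calls of marker genes, 31 held under every alternative run that tested the gene, other than the threshold of a log2 fold change above 1, and 0 changed direction. Some genes were not tested in every run. Syt1 with MCAO in control mice was tested in 12 alternatives, where Acta2 was tested in 17. The setting of at least 10 counts in every library kept 36 calls, lost 1 and did not test the rest. With genotype after MCAO, the 2 genes called higher became 4 (Aldh1l1, Cdh5, Cnp and Kdr) without the filter on low counts, with DESeq2 and with the replicate block, and 1 with a log2 fold change above 1. The 0 called lower became 1 with DESeq2 (Gja1). With MCAO in control mice the 8 higher became 5 with a log2 fold change above 1. The 2 genes of the interaction became 0 with limma-voom (adjusted p = 0.0511 for Cnp and 0.108 for Kdr), 1 with the replicate block (Kdr), 1 with a log2 fold change above 1, 0 without both MCAO Vdr-cKO replicates 1 and 2, and 1 without sham control replicates 2, 4 and 5, the last pair of choices made after the data were seen. Leaving out 1 library at a time gave, with genotype after MCAO, 2 to 3 higher and 0 to 1 lower (Cspg4 without MCAO control replicate 1), after sham 0 to 1 higher (Aldh1l1 without sham control replicate 1) and 0 lower, with MCAO in control mice 7 to 8 higher and 8 to 13 lower, in Vdr-cKO mice 8 to 11 higher and 8 to 9 lower, and for the interaction 0 to 2 higher. Deviations of same-numbered libraries had correlations from -0.38 to 0.36, over 3 or 4 pairs per comparison. With so few pairs these values do not decide whether the numbers pair the libraries. Beyond those losses, limma-voom lost the falls with MCAO in control mice of Flt1 (adjusted p = 0.0788), Snap25 (adjusted p = 0.075) and Rgs5 (adjusted p = 0.0873) and the rise of Cdh5 in Vdr-cKO mice (adjusted p = 0.0512). Cdh5 was also lost with at least 10 counts in every library (adjusted p = 0.0522). In 1 fit of all libraries Cdh5 (adjusted p = 0.12) and Flt1 (adjusted p = 0.199) were lost in Vdr-cKO mice and Cnp (adjusted p = 0.0596) in control mice. Aqp4 in control mice was lost without the filter (adjusted p = 0.0573). The replicate block lost Aqp4 (adjusted p = 0.0989) and Rgs5 (adjusted p = 0.06) in control and Flt1 (adjusted p = 0.0818) in Vdr-cKO mice. Without both MCAO Vdr-cKO replicates 1 and 2, Cdh5 (adjusted p = 0.215) and Aldoc (adjusted p = 0.0634) were lost in Vdr-cKO mice, and without sham control replicates 2, 4 and 5, Aldoc (adjusted p = 0.202) and Aqp4 (adjusted p = 0.126) in control mice. The cause of these changes was not tested. Counts of all genes called moved more, from 495 higher with genotype after MCAO to between 256 and 725. Depth limits the neuronal genes and Mog, Olig2, Nefl and Gad1, whose counts were too low to test.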
